A study of Mus musculus with 36 samples.

Results

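Lungs of mice lacking Notch4 were compared with lungs of wild-type mice after both had breathed ozone for 24 hr, which uses 6 of the 36 arrays of the series, 3 mice per genotype and 1 mouse per array. Members were chosen by the sample labels alone, and all 45037 non-control probe sets of the array entered the comparison. All mice were males of 7 to 13 weeks. Notch4-/- mice were B6;129S1-Notch4tm1Grid/J and wild-type mice were B6129SF1/J, first-generation hybrids of the same parental strains, so the knockout line and its strain background cannot be told apart. Ozone was given at 0.3 ppm without a break, and total RNA came from homogenates of the left lung, which the study calls whole lung. Groups of the same genotypes in filtered air and after 6 hr and 48 hr of ozone, and the Notch3-/- mice (B6;129S1-Notch3tm1Grid/J) after 24 hr, serve as reference, with 3 mice in each.

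Notch receptors are single-pass membrane proteins that bind Delta-like and Jagged ligands on neighbouring cells, are then cut by gamma-secretase, and release an intracellular part that joins RBPJ to switch on genes such as the Hes and Hey repressors. Notch4 is best known from endothelial cells. Ozone is an oxidant gas that injures airway epithelium and brings neutrophils, cytokines and acute phase proteins into the lung within hours to days.

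Values are log2 expression values from which each probe set's own median across the 36 arrays had been taken off before deposit, so a level of 0 is the middle of the series, levels of different genes cannot be set against each other, and whether a gene was detected cannot be read. That also limits the check of the lung label: Sftpc and Scgb1a1, markers of alveolar type 2 and club cells, lay between -0.08 and 0.06 in the 6 mice, Sftpb between -0.09 and 0.28, Ager between -0.21 and 0.32, and Cdh5, an endothelial cadherin, between 0.01 and 0.69. Sftpb and Ager were lower in every knockout than in every wild-type mouse, and none of these values shows that the genes were present.

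One lung stood apart. In Notch4-/- mouse 1, 28 probe sets were more than 2 log2 units above each of the other 5 mice at 24 hr, against 4 in wild-type mouse 3 and 0 in each of the others. Those of Notch4-/- mouse 1 belong to secreted proteins of large airways (Bpifa1, Bpifb1, Scgb3a1, Reg3g, Muc5b, Agr2, Tff2, Clca1, Ltf), to fat (Adipoq, Car3, Fabp4) and to atrial or pulmonary vein muscle (Nppa). Over the 19 mucin and goblet cell genes its mean level was 1.15, against -0.40 to -0.30 in the other 2 knockouts and -0.72 to -0.46 in wild-type mice, and over 21 ciliated cell genes it was 0.41 against -0.37 to -0.23 in the other 5. The 11 fat genes averaged 0.65 against -0.71 to -0.35. In wild-type mouse 3 the 16 skeletal muscle genes averaged 1.07, against -0.27 to 0.12 elsewhere. The part of these tissue differences in the results below was not tested, beyond giving the counts of calls without the mouse. In whole lung, fewer cells of a type and less RNA per cell cannot be told apart.

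**Figure D1:**
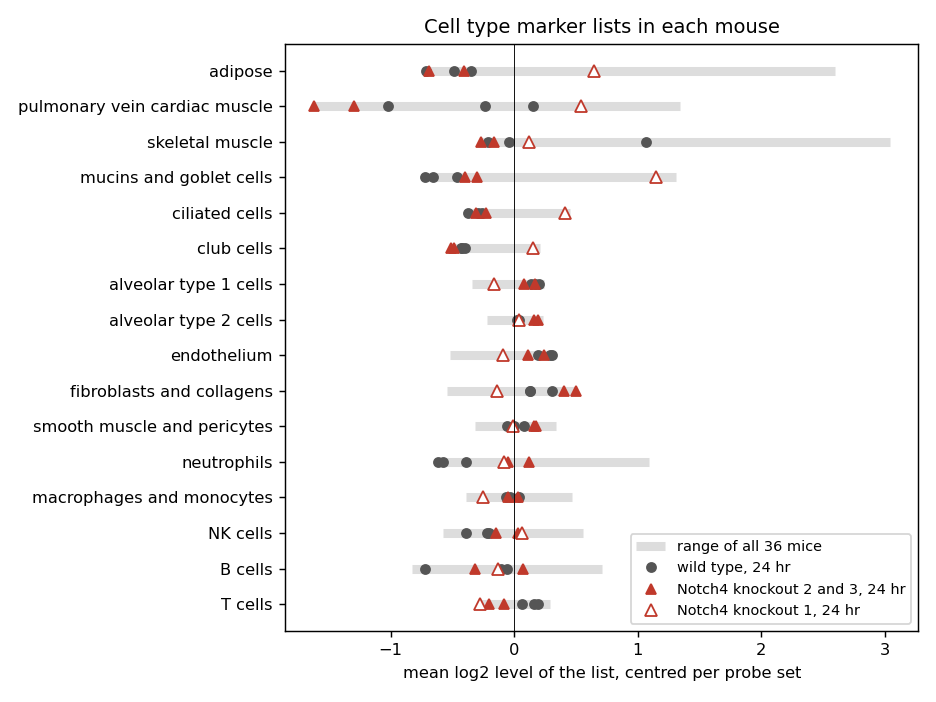
Mean centred log2 level of each cell type marker list (x axis) in the 3 wild-type (circles) and 3 Notch4-/- mice (triangles) after 24 hr ozone; grey bars span all 36 mice. Notch4-/- mouse 1 (open triangle) lies at 1.15 on the mucin and goblet cell list, while the other 5 mice lie between -0.72 and -0.30.

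The targeted gene was low in every knockout lung. At probe set 1449146_at, Notch4 stood at 0.53, 0.50 and 0.58 in the wild-type mice and at -3.78, -3.83 and -4.31 in the knockouts, a difference of -4.51 (SE 0.31, adjusted p = 1.3e-10), or 22.8 times lower. Probe set 1456263_at gave -0.98 (SE 0.15, adjusted p = 2.8e-04), with groups that did not overlap, and 1436901_at gave -0.15 (adjusted p = 0.72), with groups that did. The position of the 3 probe sets against the targeted exons was not known here, so only a loss of signal, and not the deletion itself, can be read from them. In filtered air the knockouts stood at -1.97, -1.40 and -3.69 at 1449146_at, so 2 of the air controls kept an intermediate signal. All knockouts of 6 hr and 48 hr lay between -4.05 and -3.42. Elsewhere in the pathway no gene passed the test: of 38 measured Notch pathway genes (Notch4 counted at 1436901_at) 0 were called in either direction (1 at an unadjusted p under 0.05 in each direction), and their median difference was -0.04. Hey1, a Notch target, was lower in all 3 knockouts (-0.39, SE 0.20, adjusted p = 0.48) and Hes1, another target, differed by 0.29 (adjusted p = 0.53).

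Of the 45037 probe sets, 344 (0.764%) differed between the genotypes at an adjusted p under 0.05, 171 higher (0.38%) and 173 lower (0.384%) in Notch4-/- lungs, and they belong to 259 named genes. The 3 knockouts lay all above or all below the 3 wild-type mice in 341 of the 344, a pattern that 18.6% of all probe sets showed. With 1 probe set per gene, 147 of 18193 genes were called (0.808%), 71 higher (0.39%) and 76 lower (0.418%). The number of calls rests on single lungs: it was 129 without wild-type mouse 1, 167 without wild-type mouse 2, 164 without Notch4-/- mouse 1 and 191 without Notch4-/- mouse 2, with 126, 159, 147 and 163 of the 344 kept. A fit to the 6 arrays alone, with fewer degrees of freedom, called 121, of which 42 were higher and 79 lower, so that the share of higher calls moved from 49.7% to 34.7%.

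The largest differences were losses in the knockouts. Gbp2b, an interferon-inducible guanylate-binding GTPase, stood at 4.84, 4.95 and 4.89 in wild-type mice and at -0.23, -0.36 and 0.19 in Notch4-/- mice, 32.6 times lower (-5.03, SE 0.22, adjusted p = 4.9e-15). Gdpd3, a lysophospholipase D, stood at 4.27, 4.10 and 4.24 against -0.14, -0.75 and -0.86 (-4.79, SE 0.28, adjusted p = 3e-12). Within each genotype the mice lay close together, and no mouse lay between the groups. BC018473, a gene without a protein name, gave 1.87, 1.23 and 1.54 against -2.99, -2.92 and -2.32 (-4.29), but its SE of 1.04, which draws on all 36 mice, left it near the threshold (adjusted p = 0.044), and leaving out any 1 of the 6 mice ended the call. In Notch3-/- mice of 24 hr the same probe set stood at -2.33, 1.75 and 1.65.

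Next in size among the losses came Cntn1, a neural cell adhesion protein (-2.70, SE 0.30, adjusted p = 2e-06), and Fbp2. Fbp2, the muscle form of the gluconeogenic enzyme fructose-1,6-bisphosphatase, stood at 2.20, 2.78 and 2.42 in wild-type mice against 0, -0.11 and 0.11 (-2.47, SE 0.18, adjusted p = 2.5e-10), and its neighbour Fbp1, the liver form, was lower by a smaller amount (-0.90, SE 0.20, adjusted p = 0.018). Psca, a surface antigen of epithelia, gave 1.79, 1.75 and 2.05 against 0, -0.31 and -0.38 (-2.09, SE 0.15). Ctse, the aspartic protease cathepsin E, differed by -1.85 (SE 0.24), Procr, the endothelial protein C receptor, by -1.37 (SE 0.17) and Slc6a20a, a proline transporter, by -1.41 (SE 0.30, adjusted p = 0.014). Nnt, the mitochondrial transhydrogenase that makes NADPH, differed by -1.04 (SE 0.11, adjusted p = 1.7e-06), and Paip1 beside it, a partner of poly(A)-binding protein, by -1.55 (SE 0.13).

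The remaining large losses were Tmem87a (-2.04, SE 0.10), Wdfy1 (-1.92, SE 0.16), Zkscan8 (-1.90, SE 0.37), Bloc1s6 (-1.89, SE 0.12), Gm38983 (-1.52, SE 0.17) and Abhd1 (-1.49, SE 0.15). Tmem87a had the smallest SE of them, pooled over the 36 arrays, with 1.98, 1.95 and 1.95 in wild-type and 0.20, -0.23 and -0.22 in knockout mice. For several of these genes only some probe sets moved. Mapk8, the stress kinase JNK1, was lower at 1 probe set (-1.67, SE 0.18, adjusted p = 1.7e-06) while its other 4 lay between -0.15 and 0.35 with 0 called; at Bloc1s6 and Zkscan8 1 of 3 was called, and at Ctse and BC018473 1 of 2, with the other probe set at -0.01 and -0.11. Cntn1, Wdfy1 and Paip1 were called at more than 1 probe set. Their uncalled ones lay at 0.01 (Cntn1), -0.01 and -0.44 (Wdfy1), and 0.02 and 0.24 (Paip1). A loss at 1 probe set of several is a difference of that probe set, not of the whole gene.

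Gains were smaller. Gm4951, an interferon-inducible GTPase gene, stood at -1.76, -1.53 and -1.72 in wild-type and at 0.56, 0.16 and 0.37 in Notch4-/- mice, 4.1 times higher (2.04, SE 0.37, adjusted p = 0.0042). Trim30d, of a family of ubiquitin ligases of innate immunity, gave -1.24, -1.06 and -1.06 against 0.30, 0.30 and 0.35 (1.44, SE 0.19, adjusted p = 3.6e-05). Its other probe set differed by 0.58 and was not called. Casp4, the caspase that senses cytosolic lipopolysaccharide, gave -1.16, -1.14 and -0.98 against 0.54, 0.30 and 0.04 (1.39, SE 0.19, adjusted p = 6e-05). The groups were apart for all 3 genes, and all 3 calls held under every alternative.

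Nlrc5, the transactivator of MHC class I genes, was also higher by 1.20 (SE 0.25, adjusted p = 0.012). The neighbouring Ifi200 genes of chromosome 1 belong to a family that includes sensors of cytosolic DNA. Among them, Ifi209 (1.25, SE 0.23, adjusted p = 0.0043) and Ifi213 (1.18, SE 0.17, adjusted p = 1.8e-04) were higher, whereas Ifi202b was lower (-1.10, SE 0.19, adjusted p = 0.0021). Trim34a and Trim12a were each higher at 1 of 2 probe sets (1.11, SE 0.23, and 0.97, SE 0.22), with the other probe set at -0.26 and 0.09. Ang, which encodes the ribonuclease angiogenin, was higher by 1.13 (SE 0.16, adjusted p = 2e-04).

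Anxa8, an annexin, was higher by 1.30 (SE 0.31, adjusted p = 0.034), but the 3 knockouts spread from 1.03 in mouse 1 to -0.36 and -0.47, and the call was lost without mouse 1 as well as without any 1 of the wild-type mice. Adam28, a metalloprotease (1.09, SE 0.22), had the same order, with 0.89 in mouse 1 against -0.21 and -0.02, and lost its call without mouse 1 and without wild-type mouse 1 or 2. Klk13, a secreted kallikrein protease (1.19, SE 0.24), Nnmt, nicotinamide N-methyltransferase (1.16, SE 0.24), and AA467197 (1.23, SE 0.26) were apart between the groups. Ppip5k1 (1.17, SE 0.16), Car8 (1.0, SE 0.15), Ercc6l2 (0.97, SE 0.18), Krtap17-1 (1.03, SE 0.23) and Sox11, a transcription factor of developing tissue (0.96, SE 0.17), complete the 20 largest gains with Hpx. Here too single probe sets counted: the other 4 of Ercc6l2 lay between -0.18 and 0.14, the other of Ppip5k1 at -0.25 and the other 2 of Car8 at 0.13 and 0.52, with 0 called.

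**Figure D2:**
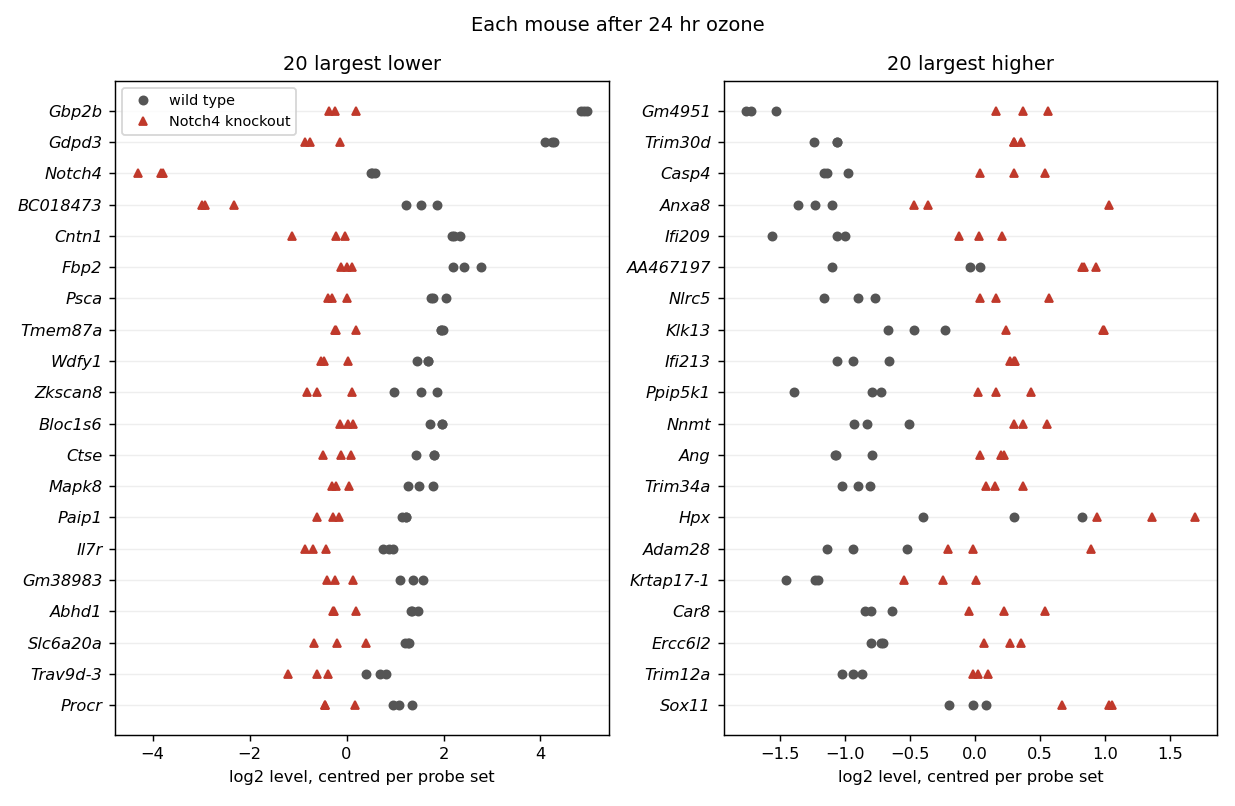
Centred log2 levels (x axis) of the 20 largest losses and 20 largest gains in each of the 3 wild-type (circles) and 3 Notch4-/- mice (triangles) after 24 hr ozone. The rule that picks these genes requires groups that do not overlap; losses reach -5.03 (Gbp2b), gains 2.04 (Gm4951).

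Interferon-stimulated genes were the list with the highest share of calls. These genes are switched on when interferon signalling brings STAT and IRF factors to their promoters. Of 34 measured, 6 were higher and 0 lower (17.6%, against 0.808% of all genes), 20 had all 3 knockouts above all 3 wild-type mice (11.3% of all probe sets did) and 27 had a positive difference. The median difference was 0.28, against 0.03 over all genes. The list leaves out some interferon-inducible genes given above, among them Gbp2b, which was lower (-5.03), and Gm4951, which was higher (2.04). Of the Ifi200 genes, also outside it, Ifi209 and Ifi213 were higher and Ifi202b was lower. Rtp4, a receptor transport protein, was at -0.92, -0.49 and -0.76 in wild-type and 0.13, 0.08 and 0.06 in Notch4-/- mice (0.81, SE 0.12, adjusted p = 1.6e-04). The other probe set of Rtp4 differed by 0.09 and was not called. Oas1a, which makes the activator of the RNA-cutting enzyme RNase L, was at -1.14, -0.78 and -0.55 against 0.20, 0 and 0.15 (0.94, SE 0.19, adjusted p = 0.0097). All 3 knockouts lay within 0.20 of the middle of the series, and the wild-type mice lay below it.

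Ifit1, which binds foreign RNA caps (0.75, SE 0.13, adjusted p = 0.0027), and Irf7, the factor that amplifies type I interferon (0.63, SE 0.13, adjusted p = 0.0099), were higher as well. Oas2 (0.84, SE 0.19, adjusted p = 0.023) and Usp18, which removes the ubiquitin-like protein ISG15 (0.44, SE 0.10, adjusted p = 0.032), named after their values were seen, were the other 2. Calls among the 34 numbered 3 without Notch4-/- mouse 1, 2 without wild-type mouse 1, 4 without wild-type mouse 2 and 4 without wild-type mouse 3, of which 3, 2, 3 and 4 were among these 6. In the fit to the 6 arrays alone 0 of the 6 were called (adjusted p from 0.064 for Rtp4 to 0.22 for Usp18) and 1 other gene of the list, Ifi27l2a, was. The median of the 34 genes was 0.22 in air, 0.59 at 6 hr and 0.06 at 48 hr, where other mice were compared. At these exposures 2, 9 and 0 of the 34 were called.

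The promoters of 3 of these 6 genes are in the RefSeq promoter table (GRCm38.p6) and are shown because their genes moved together. Each runs from 250 bases before to 50 bases after the gene's start, 5′ to 3′ on the gene's strand. Capitals mark GAAANNGAAA or its reverse complement TTTCNNTTTC, the repeat at the core of the interferon-stimulated response element, searched on both strands with overlaps kept.
Ifit1, chr19:34640639-34640938, plus strand: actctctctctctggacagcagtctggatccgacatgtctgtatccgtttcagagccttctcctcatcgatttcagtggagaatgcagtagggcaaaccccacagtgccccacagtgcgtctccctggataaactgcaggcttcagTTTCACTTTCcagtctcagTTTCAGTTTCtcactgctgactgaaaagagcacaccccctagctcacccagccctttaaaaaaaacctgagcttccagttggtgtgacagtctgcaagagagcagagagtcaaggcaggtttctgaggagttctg
Oas1a, chr5:120907476-120907775, minus strand: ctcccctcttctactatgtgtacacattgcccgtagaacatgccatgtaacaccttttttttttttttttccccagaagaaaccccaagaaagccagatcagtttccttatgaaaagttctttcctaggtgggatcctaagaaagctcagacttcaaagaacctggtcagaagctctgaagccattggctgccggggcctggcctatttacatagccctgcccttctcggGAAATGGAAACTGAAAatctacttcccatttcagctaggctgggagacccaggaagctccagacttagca
Irf7, chr7:141266375-141266674, minus strand: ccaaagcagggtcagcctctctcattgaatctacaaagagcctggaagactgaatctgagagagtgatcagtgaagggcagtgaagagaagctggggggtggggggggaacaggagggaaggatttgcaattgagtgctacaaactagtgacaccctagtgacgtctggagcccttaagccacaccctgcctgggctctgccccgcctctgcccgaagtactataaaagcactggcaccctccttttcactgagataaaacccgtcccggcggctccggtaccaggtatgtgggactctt
Ifit1 held 2 matches, which start 104 and 85 bases before the gene's start, and Oas1a held 2 overlapping matches 20 and 14 bases before it, while no match was in the Irf7 window. Of the 27025 genes with a promoter in the table, 3.49% held the repeat. Among the listed interferon-stimulated genes with a promoter it was in 2 of the 3 called and in 14 of the 22 others (63.6%). A match is a description of these letters, and no match says only that they are not in this window.

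One listed gene split the knockouts. Xaf1, an interferon-induced cofactor of apoptosis, stood at 4.10, 4.29 and 4.19 in wild-type mice of 24 hr, and at -0.17, 4.66 and -0.21 in the knockouts at probe set 1443621_at (-2.77, SE 0.88, adjusted p = 0.17). Knockout mouse 2 was at the wild-type level and the other 2 more than 4 log2 units lower. Over the 4 exposures 9 of the 12 Notch4-/- mice lay between -0.61 and 0.01 and 3 between 4.66 and 5.14, while all 12 wild-type mice lay between 3.95 and 4.61. Its second probe set differed by 0.77 and was not called. Xaf1 lies outside the naming rule and was chosen after its values were seen, and the mice of the Notch4-/- line thus differed among themselves at this probe set.

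Every call among T cell genes was lower in the knockouts. Of 25 measured, 0 were higher and 4 lower (16%, against 0.418% of all genes called lower), 11 had all knockouts below all wild-type mice (7.39% of all probe sets did), and the median difference was -0.28, against 0.03 over all genes. At the other exposures 0 of the 25 were called at the probe set that stands for the gene. The medians there were -0.20 in air, -0.04 at 6 hr and -0.04 at 48 hr. Il7r, the interleukin-7 receptor that keeps naive T cells alive, stood at 0.96, 0.87 and 0.76 in wild-type and at -0.85, -0.70 and -0.43 in Notch4-/- mice at probe set 1448576_at (-1.52, SE 0.23, adjusted p = 3.8e-04) and was also lower at 1448575_at, which stands for it in the list (-0.76, SE 0.18, adjusted p = 0.036). Cd28, the main costimulatory receptor, stood at 0.45, 0.64 and 0.42 against -0.58, -0.14 and -0.98 (-1.08, SE 0.23, adjusted p = 0.014). In both genes every wild-type mouse was above every knockout. At 1448576_at Il7r was also called lower in air (-1.06, adjusted p = 0.025), but not at 6 hr (-0.76, adjusted p = 0.18) or 48 hr (-0.86, adjusted p = 0.11).

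Bcl11b (-0.78, SE 0.18, adjusted p = 0.029) and Lef1 (-0.52, SE 0.12, adjusted p = 0.032), transcription factors of T cell identity, were the other 2 called. Trav9d-3, a T cell receptor alpha variable segment, was among the 20 largest losses (-1.37, SE 0.28, adjusted p = 0.0099), while Zap70, the kinase of the receptor, differed by -0.46 (SE 0.14, adjusted p = 0.15). The mean level of the 25 genes was 0.06 to 0.19 in wild-type and -0.28 to -0.08 in knockout mice. Calls in the list rested on single mice, with 0 left without Notch4-/- mouse 1, 0 without wild-type mouse 2 and 1 without wild-type mouse 1, wild-type mouse 3 or Notch4-/- mouse 2; Il7r kept its call at 1448576_at under every alternative. The median difference was 0.14 over 14 NK cell genes and 0.14 over 19 B cell genes, with 0 calls in either, and the mean B cell level was -0.72 in wild-type mouse 1 against -0.06 and -0.11 in the other wild-type mice and -0.13, 0.07 and -0.32 in the knockouts.

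**Figure D3:**
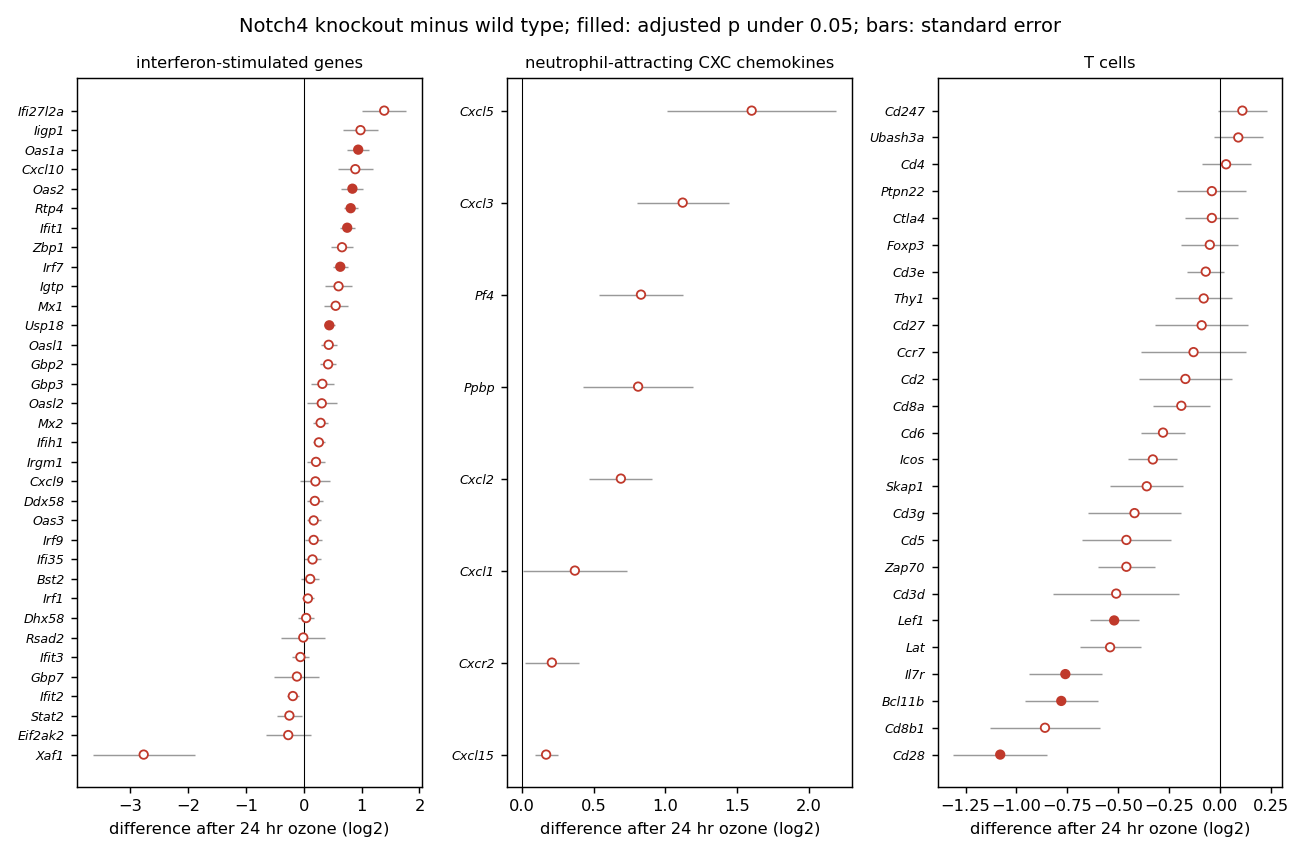
Difference between Notch4-/- and wild-type mice after 24 hr ozone (x axis, log2, with standard error) for each measured gene of 3 lists; filled points have an adjusted p under 0.05. 6 of 34 interferon-stimulated genes are filled to the right of 0, 0 of 8 chemokines, and 4 of 25 T cell genes to the left of it.

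Genes of the ozone inflammatory response leaned higher in the knockouts, with few calls. The chemokine and neutrophil lists leaned higher in filtered air as well. Of 20 acute phase genes 2 were higher (10%, against 0.39% of all genes; median 0.30): Hpx, which carries free heme, at -0.40, 0.30 and 0.82 in wild-type and 1.69, 1.36 and 0.94 in knockout mice (1.09, SE 0.24, adjusted p = 0.019), and Chil1, a chitinase-like protein also made by type 2 cells, at -0.49, -0.22 and -0.01 against 0.74, 0.73 and 0.53 (0.91, SE 0.13, adjusted p = 1.8e-04). Chil1 is also the 1 call among 15 alveolar type 2 genes (6.67%), and it was called at every other exposure (0.75 in air, 0.78 at 6 hr and 0.77 at 48 hr). The acute phase median was 0.14 in air, 0.01 at 6 hr and 0.22 at 48 hr. For Hpx the highest wild-type mouse was close to the lowest knockout, and its call was lost without wild-type mouse 1 or 2 or knockout mouse 1 or 2 (adjusted p up to 0.26). Of 42 genes of TLR, TNF and NF-kB signaling 2 were higher (4.76%, against the same 0.39%; median 0.08), Cd14, the lipopolysaccharide co-receptor (0.91, SE 0.22, adjusted p = 0.035), and Relb, an NF-kB subunit (0.61, SE 0.13, adjusted p = 0.016), and neither call held without wild-type mouse 1 or without knockout mouse 1 or 2 (adjusted p up to 0.29 and 0.16). Myd88, the adaptor of Toll-like receptors, gave 0.30 (SE 0.11, adjusted p = 0.30), Traf6, a ligase downstream of it, 0.12 (adjusted p = 0.80), and Tnf, the cytokine, -0.07 (SE 0.18, adjusted p = 0.92). At an unadjusted p under 0.05, 5 of the 42 were higher and 3 lower, with Tlr6 among the lower (-0.39, SE 0.14, adjusted p = 0.24).

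Of the 8 neutrophil-attracting CXC chemokine genes 0 were called, although all 8 differences were positive, 6 had an unadjusted p under 0.05 and the median was 0.75. In the other mice of the other exposures the median was 0.54 in air, 0.57 at 6 hr and 0.24 at 48 hr. Cxcl5, an epithelial chemokine, overlapped between the groups, at 0.22, 1.35 and 1.45 in wild-type and 3.84, 2.56 and 1.42 in knockout mice (1.60, SE 0.59, adjusted p = 0.26). Cxcl3 stood at -0.07, 1.45 and 1.39 against 2.36, 2.13 and 1.65 (1.12, SE 0.32, adjusted p = 0.10) and Cxcl2 at 0.01, -0.03 and 0.06 against 0.62, 0.89 and 0.61 (0.69, SE 0.22, adjusted p = 0.17), both without overlap. Cxcl1 gave 0.37 (SE 0.36, adjusted p = 0.75). The mean level of the list was 1.21, 1.02 and 0.61 in the knockouts against 0, 0.29 and 0.38.

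Among 16 CC chemokine genes 0 were called and 14 were positive (median 0.33), including the monocyte attractants Ccl2 (0.88, SE 0.24, adjusted p = 0.091) and Ccl12 (1.05, SE 0.34, adjusted p = 0.18). The median of the 16 was 0.43 in air, 0.30 at 6 hr and 0.40 at 48 hr, with 1, 2 and 2 genes called. Il6, which drives the acute phase, gave 1.18 (SE 0.39, adjusted p = 0.18), Socs3, its feedback inhibitor, 0.51 (SE 0.15, adjusted p = 0.11), and the alarmin Il33 0.54 (SE 0.19, adjusted p = 0.22). In the IL-1 family and inflammasome list, which holds Il33, 14 of 19 differences were positive. Il18 of that list went the other way (-0.72, SE 0.20, adjusted p = 0.085), with all knockouts below all wild-type mice. Over 19 neutrophil genes the median was 0.44, against 0.03 over all genes. In 11 of the 19 all knockouts lay above all wild-type mice (11.3% of all probe sets did). Their mean level was -0.08, -0.05 and 0.12 in the knockouts against -0.62, -0.58 and -0.39, but 0 were called higher. The neutrophil median was 0.34 in air, 0.51 at 6 hr and 0.39 at 48 hr. The 1 call in that list was lower: Fpr2, a receptor for formylated peptides, at -0.07, -0.09 and -0.09 in wild-type and -0.81, -1.15 and -0.75 in knockout mice (-0.82, SE 0.20, adjusted p = 0.043), which lost its call without any 1 of the 6 mice. Muc5ac, the goblet cell mucin, was the 1 call among 19 mucin and goblet cell genes (0.64, SE 0.15, adjusted p = 0.037), with the highest value, 0.78, in knockout mouse 1. That is 5.26% of the list, against 0.39% of all genes called higher. Muc5ac was not called without wild-type mouse 1 or 2 or knockout mouse 1 or 2 (adjusted p up to 0.30).

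Other lists gave few calls. Nlrc5 was the 1 call among 15 MHC class I genes (6.67%), Trim30d among 16 Trim genes (6.25%), Casp4 among 19 genes of the IL-1 family and inflammasome (5.26%), and Phlda3 (0.52, SE 0.11, adjusted p = 0.011) among 19 p53 targets (5.26%). Krtap17-1 and Psca were the 2 calls, in opposite directions, among 28 genes of epithelial repair (7.14%). Of all genes 0.808% were called. Lists with 0 calls included 26 NRF2 targets (median 0.08), 30 endothelial genes (-0.17, of which 9 had all knockouts below all wild-type mice), 12 MHC class II genes (-0.24, 7 below), 19 clock genes (-0.07, 7 below), 34 respiratory chain genes (-0.01) and 34 mitosis genes (0.24). Of all probe sets 7.39% had all knockouts below, and the median over all genes was 0.03. Among the 30 endothelial genes 4 differences were positive, and their median was -0.24 in air, -0.11 at 6 hr and -0.30 at 48 hr. The counts of 0 hold for the probe set that stands for each gene. At other probe sets the endothelial gene Ednrb was called at 1 of 2 (-1.41 and -0.62), and the NRF2 target Gclc was called higher (0.93). The 20 genes that the study names in its text gave 0 calls at the probe set that stands for each gene (6 higher and 1 lower at an unadjusted p under 0.05). Trim30a gave 0.45 (SE 0.21, adjusted p = 0.43).

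Most differences called at 24 hr had the same direction in the other mice of the other exposures. Of the 344 probe sets called at 24 hr, 300 (87.2%) had the same sign in air, at 6 hr and at 48 hr, against 25.8% of all probe sets with 1 sign at all 4 exposures. Of the 171 higher, 39 were also called in air, 68 at 6 hr and 56 at 48 hr, and of the 173 lower, 76, 71 and 62, where 0.171%, 0.369% and 0.271% of all probe sets were called higher and 0.311%, 0.273% and 0.2% lower. In all, 217 probe sets (0.482%) were called in air, 289 (0.642%) at 6 hr and 212 (0.471%) at 48 hr, and 0 of the 344 was called there in the opposite direction. At all 4 exposures 79 probe sets of 62 genes were called, 28 higher and 51 lower. Gbp2b differed by -5.62 in air, -4.96 at 6 hr and -4.97 at 48 hr, Tmem87a by -2.08, -2.05 and -2.07, and Trim30d by 1.11, 1.64 and 1.03.

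Of the 344, 170 (49.4%) were called at 24 hr alone and 55 had an unadjusted p of 0.05 or more at each of the other exposures. Among these 55 are Krtap17-1 (-0.15 in air, -0.47 at 6 hr, 0.36 at 48 hr), Fpr2 (-0.22, -0.41 and -0.37), the NF-kB subunit Nfkb2 at probe set 1429128_x_at (0.59 at 24 hr against -0.08, -0.05 and 0.02), the chaperone Calr (0.69 against 0, 0.16 and 0.23) and the vessel growth factor Angpt1 (-0.64 against -0.09, -0.06 and -0.07). Without Notch4-/- mouse 1, 146 of 164 called probe sets (89%) had the same sign at every exposure, 67 were called at all 4, 52 (31.7%) at 24 hr alone, and 22 had an unadjusted p of 0.05 or more at each of the others. None of this was shown to be particular to 24 hr: the test of the 24 hr difference against the air difference called 0 probe sets (2366 at an unadjusted p under 0.05, smallest adjusted p 0.59), and against the mean of the other 3 it called 0 (2382, smallest adjusted p 0.15, for Tagln2 at 1439407_x_at). The median SE of the first was 0.196, against 0.139 for the 24 hr difference itself. With array weights, limma called 20 probe sets in the test against air and 1 in the test against the other exposures.

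**Figure D4:**
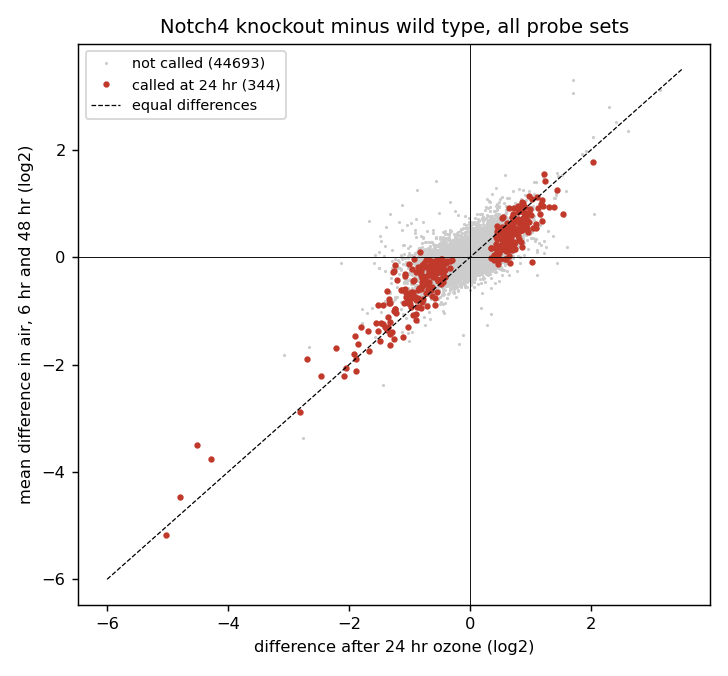
Difference between Notch4-/- and wild-type mice after 24 hr ozone (x axis, log2) against the mean of the differences in air and at 6 and 48 hr (y axis, log2) for all 45037 probe sets; the 344 called at 24 hr are red. Of these, 300 have the same sign at every exposure.

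**Figure D5:**
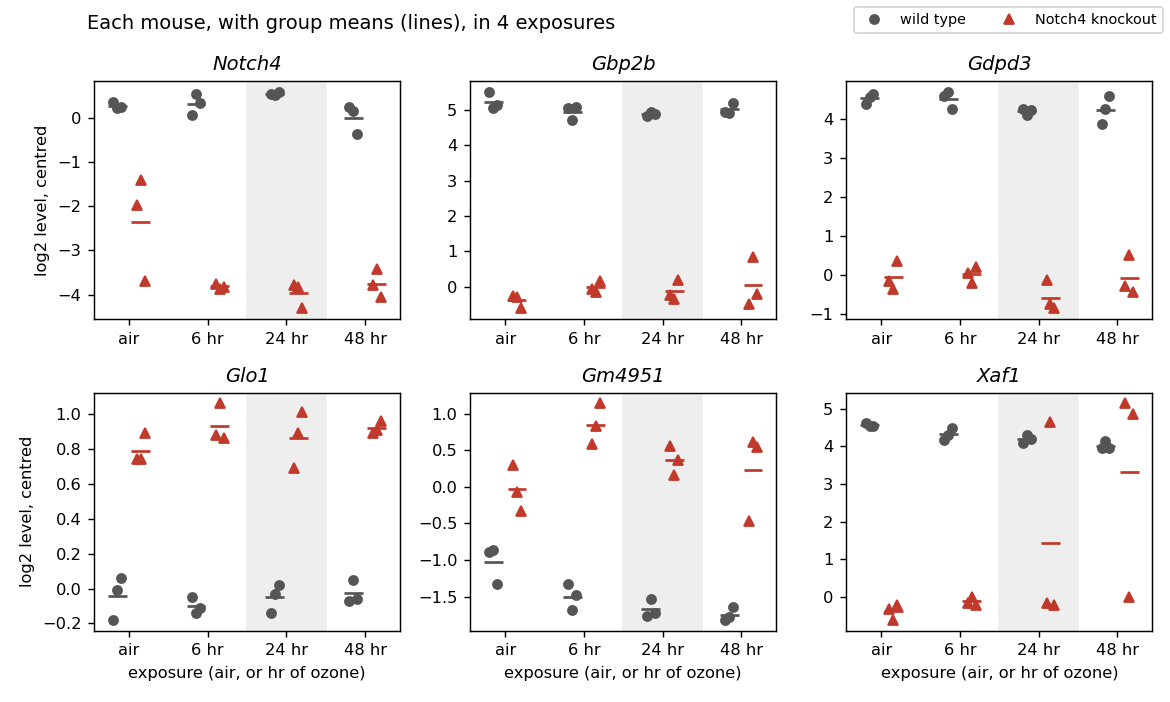
Centred log2 level of 6 genes (y axes) in each wild-type (circles) and Notch4-/- mouse (triangles) in air and after 6, 24 and 48 hr of ozone; lines are group means of 3 and the 24 hr groups are shaded. Gbp2b, Gdpd3, Glo1 and Gm4951 separate the genotypes at every exposure, whereas Xaf1 has knockouts at both levels at 24 and 48 hr, and Notch4 is intermediate in 2 air knockouts.

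Of the 65 called genes described here and followed through every alternative, 34 lost their call when 1 of the 6 mice was left out and 0 changed sign. Wild-type mouse 1 decided 28 of these calls, wild-type mouse 2 23, wild-type mouse 3 11, and Notch4-/- mice 1, 2 and 3 decided 27, 23 and 7. Beside the genes already said to rest on single mice, they include Nlrc5, Trim34a, Trim12a, Klk13, Nnmt, AA467197, Krtap17-1, Slc6a20a, Zkscan8, Trav9d-3, Fbp1, Glp1r, Phlda3, Oas1a, Oas2, Usp18, Ifi209, Ifit1, Irf7, Nfkb2, Calr, Angpt1 and Ap1s3, with adjusted p reaching from 0.052 (Ifit1) to 0.28 (Usp18) without the mouse that mattered most. Rtp4, Gbp2b, Gdpd3, Glo1, Casp4, Trim30d, Psca, Fbp2 and Notch4 were called whichever mouse was left out. For genes with several probe sets this holds for the 1 probe set that was followed.

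Called genes were not evenly spread over the chromosomes. On chromosome 1, 20 of 1057 measured genes were called (1.89%), on chromosome 7 19 of 1413 (1.34%), on chromosome 13 9 of 702 (1.28%), and on chromosome 11 2 of 1443 (0.139%), against 0.808% overall. Chromosome 17, which carries Notch4, had 7 of 834 (0.839%). Without Notch4-/- mouse 1 these 5 chromosomes had 11, 10, 6, 1 and 2 of 79 called genes. Called genes lay near each other, at most 5 steps apart in the order of measured genes, in 17 places, some with uncalled genes between them. Direct neighbours were, for example, Fbp2 and Fbp1 or Nnt and Paip1 on chromosome 13, and Ap1s3 (-0.91) and Wdfy1 on chromosome 1. These pairs were lower together, but other neighbours went opposite ways. Ctse was lower (-1.85) and Rab7b beside it higher (0.58), and 4833420G17Rik, next to Paip1, was higher (0.66). Among the 200 measured genes nearest to Notch4 in gene order, 2 were called (1%): Glo1, the glyoxalase that detoxifies methylglyoxal, and Glp1r, the receptor of the incretin GLP-1 (-1.34, SE 0.29, adjusted p = 0.019). Glo1 stood at -0.14, -0.03 and 0.02 in wild-type and at 0.69, 0.89 and 1.01 in Notch4-/- mice (0.91, SE 0.14, adjusted p = 7.1e-04), with its other 3 probe sets at 0.62 to 0.89, all called.

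Against the Notch3-/- mice of 24 hr, 171 probe sets (0.38%) differed, 99 higher and 72 lower in Notch4-/- lungs. Of the genes described above, 4 differed in this test. Glo1 was at -0.79, -0.90 and -0.78 in Notch3-/- mice, 1.69 below the Notch4-/- mice (SE 0.14, adjusted p = 3.2e-08). Fpr2 was lower in Notch4-/- than in Notch3-/- mice (-1.53, adjusted p = 5.7e-05), Sox11 was higher (0.91, adjusted p = 0.0095), and Notch4 was lower (-3.91 at 1449146_at, adjusted p = 7.2e-09).

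Both knockouts were set against the same 3 wild-type mice, so their values are given only side by side. Gbp2b differed from wild type by -5.03 in Notch4-/- and -5.24 in Notch3-/- lungs, Gdpd3 by -4.79 and -4.18, Fbp2 by -2.47 and -2.52, Casp4 by 1.39 and 1.52, and Gm4951 by 2.04 and 2.02. Among the genes of the lists, Cd28 differed by -1.08 and -0.69, Il7r at 1448576_at by -1.52 and -0.83, Irf7 by 0.63 and 0.29 and Rtp4 by 0.81 and 0.74. The direct difference between the 2 knockouts was not significant for any of these 9 genes (adjusted p from 0.19 for Il7r to 0.99 for Gm4951), which does not show that they act alike.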

How the data were processed

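RNA from homogenates of the left lung of 36 male mice, 3 in each of 12 groups, had been hybridised to Affymetrix Mouse Genome arrays, 1 mouse per array. The authors normalized the intensities by RMA in GeneSpring and deposited log2 values; tested on the file, each probe set has a median of 0 over the arrays (within 5e-07), a centring step that the sources used here do not describe and that hides how bright a probe set was. The methods place each mouse in a cage of its own, but the mice that shared an exposure run are not named there, so p-values measure the spread between these mice. Precision is set by 3 mice per group.

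Of 45101 probe sets, 64 controls were left out. limma 3.58.1 (R 4.3.3) fitted 1 mean per group to all 36 arrays (24 residual degrees of freedom), with eBayes and Benjamini-Hochberg adjustment over 45037 probe sets; called means an adjusted p under 0.05. Differences are Notch4-/- minus wild type in log2 units with their standard errors. The script was tested on simulated data. Gene names came from GEO's platform annotation (34945 probe sets with 1 symbol, 932 with several, 9160 with none), updated for 34741 by gene ID from RefSeq (GRCm38.p6); symbols with several genes were not named. In gene lists 1 probe set stands for a gene, the most specific suffix first.

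Members, gene lists and tests were chosen with earlier results of these data known. Genes named are Notch4, genes of the study text, the 20 largest gains and losses with groups that do not overlap, and up to 4 list members with the smallest p; Fbp1, Nnt, Ifi202b, Oas2, Usp18, Xaf1, Ap1s3, Ifi27l2a and the genes given for single exposures or for the lung of mouse 1 were chosen after their values were seen. Kdr, an endothelial gene, was taken out of the club cell list after the values were seen. Alternatives were fewer arrays, a further quantile normalization, median centring, array weights, a robust prior, the methods' ANOVA with Tukey test, leaving out the less variable 50% of probe sets, a replicate block, and leaving out each mouse; the comparison of 24 hr with the mean of the other exposures, and leaving out 2 air knockouts, were added after the data were seen.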

Additional observations from a re-analysis of the deposited data

Results flagged for a closer look

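After 24 hr of ozone the difference from wild type was not the same in the Notch4-/- and Notch3-/- lines, by limma's test of Notch4-/- against Notch3-/- mice, for 4 of the genes described: Notch4 itself (-3.91), Fpr2 (-1.53), Sox11 (0.91) and Glo1 (1.69). Fpr2 differed from wild type by -0.82 in Notch4-/- lungs and by 0.71 in Notch3-/- lungs, where it was not called (adjusted p = 0.073). Glo1 moved apart in both lines, by 0.91 in Notch4-/- and by -0.77 in Notch3-/- mice (adjusted p = 0.0035), and Sox11 by 0.96 and 0.05. Receptor and strain background cannot be told apart in either line.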

How the results depend on the processing

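The 24 hr comparison called 344 probe sets, but 121 when only the arrays of the 2 groups were fitted, 928 with array weights and 550 by the methods' ANOVA with Tukey test; leaving out 1 mouse at a time gave 129 to 393. Under the same alternatives the other counts moved as follows. With only the arrays of the compared groups, calls numbered 27 in air (main 217), 169 at 6 hr (289), 25 at 48 hr (212) and 56 against Notch3-/- mice (171), and 7 among the list genes (22). With array weights they numbered 3061, 637, 190, 1168 and 50, and 20 for the 24 hr minus air difference and 1 for 24 hr minus the other exposures, where the main count was 0. The ANOVA gave 384 in air, 437 at 6 hr, 388 at 48 hr and 377 against Notch3-/- mice. A further quantile normalization gave 400 in air, 112 at 48 hr, 330 against Notch3-/- mice and 1 for 24 hr minus the other exposures, and leaving out 2 air knockouts also gave 1 there and 0 for 24 hr minus air. Leaving out 1 mouse at a time gave 106 to 238 in air, 179 to 308 at 6 hr, 107 to 191 at 48 hr, 75 to 141 against Notch3-/- mice, 7 to 21 list genes, 0 to 1 for 24 hr minus air and 0 for 24 hr minus the other exposures. The cause was not tested, other than that fewer arrays leave fewer degrees of freedom. The share of higher calls at 24 hr stayed within 10 points under rescaling (51.8% after quantile normalization, 46.1% after median centring, against 49.7%). Same-numbered mice of 24 hr did not deviate together (r = -0.21, -0.07 and -0.41), so the numbers do not pair the mice, and a replicate block gave 376 calls at 24 hr. Of 65 called genes that are named, 26 kept their call under every alternative and none changed sign under any of them. Signal over background could not be judged on centred values.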
